A study of Triticum aestivum with 122 samples.

Results

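The genes at the distal ends of 12 chromosomes of bread wheat (Triticum aestivum), 1A to 4D, were compared with the genes between those ends in developing heads of the cultivar Vida. On each chromosome the entries of the deposited table were put in order by the number in their gene ID, which runs along the chromosome, and the first 10% and the last 10% were taken as distal. This gave 8816 distal entries, 4408 at the first ends and 4408 at the last ends, of 44083 entries on the 12 chromosomes, and 55577 entries were used in all. The whole table, as set beside the distal entries below, reaches from chromosome 1 into chromosome 5, so it is a part of the genome. Each of the 24 ends held between 277 and 439 entries. The distal entries belong to 8583 gene IDs, and no gene ID was split between the distal and the other set. Base positions were not used, since no source used here names the genome build.

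RNA was sequenced from florets and from rachis, the axis that carries the spikelets, which were dissected from the same unemerged heads at the tetrad stage. All plants were of the same cultivar and were grown in chambers at 22 °C. During germination the seeds received 1 µM 2,4-epibrassinolide (EBR), a brassinosteroid, or 1 µM dimethyl sulfoxide (DMSO) as the control, and at the tetrad stage some pots of either kind went to continuous heat at 29 °C. Sampling was at 0 h, just before this transfer, and at 8, 16 and 24 h of it, so the groups labelled 29 °C at 0 h had not yet been heated. Values were used for 121 of the 122 labelled samples: 61 floret and 60 rachis libraries in 32 groups, of which 26 held 4 libraries, 5 held 3 and 1, rachis from EBR seed at 22 °C for 8 h, held 2. The labels call the samples of a group biological replicates. Summed reads per library, in units of 1e6 reads, were 14.5 to 21.8 in floret (median 17.4) and 10.6 to 18.2 in rachis (median 14.7).

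In wheat the distal parts of the chromosome arms are gene-dense and hold most of the crossing-over of meiosis, while the broad middle around the centromere is gene-poor and recombines little. The distal parts are known to be rich in gene families that differ between cultivars, such as those of disease resistance, and the genes nearer to the centromere include many that are used in most tissues. At the tetrad stage the pollen mother cells in the anthers of the floret have just completed meiosis. Brassinosteroids are plant steroid hormones that act on growth and stress tolerance. None of the gene IDs matched the 155467 genes of the RefSeq table of wheat genes used here, so no gene name or role is given below, and entries are called by their IDs. Wheat carries A, B and D copies of most genes, and no source used here says how reads that fitted more than 1 copy were counted, so values of near-identical copies are uncertain.

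Libraries of 3 plants went against their tissue labels. Over the entries that differed at least 4-fold between the tissues, 28 higher and 355 lower in floret, the library labelled floret lay above its rachis library on a floret-minus-rachis score in 56 of the 59 plants with both, by 1.45 to 7.85 on the log2 scale. It lay below in the remaining 3, by −5.66 in replicate 3 of EBR seed at 22 °C and 16 h, by −4.39 in replicate 1 of DMSO seed at 29 °C and 0 h, and by −2.41 in replicate 1 of DMSO seed at 22 °C and 0 h. The labels were kept, and tissue results are given with and without these plants. In bulk tissue, fewer cells of a type and less RNA per cell cannot be told apart.

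Distal entries were present at lower levels than the other entries in every library. The median level of the distal entries, as log2(normalized count + 1), was 3.14 ± 0.30 in floret (SD, n = 61 libraries, 2.64 to 3.98) and 3.33 ± 0.33 in rachis (SD, n = 60, 2.69 to 4.16). That of the other entries was 4.93 ± 0.16 in floret (4.62 to 5.32) and 5.05 ± 0.15 in rachis (4.71 to 5.38). The distal median was the lower in 121 of 121 libraries, by 1.22 to 2.07, so the gap was several times the spread between libraries. Averaged over libraries, the median distal entry had 11.2 normalized counts, against 35.7 for the median of the other entries. Here and below the distal and the other entries are set side by side as counts, with no test between the sets, because entries are not replicates. Normalized counts are numbers of reads and not per transcript length, so a difference in transcript length between the sets would enter these levels.

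The difference lay at the low end more than at the top. Of the distal entries, 27.7% averaged below 1 normalized count, against 18.9% of the other entries. At 1000 or more stood 433 distal entries (4.91%) and 2113 other entries (5.99%). The distal entries, 8816 of the 44083 on these chromosomes, supplied 16.6 ± 0.44% of the normalized counts in floret and 17.7 ± 0.55% in rachis (SD over 61 and 60 libraries).

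Breadth of detection, the number of the 32 groups in which an entry averaged at least 10 normalized counts, was lower at the ends. In all 32 groups stood 3644 distal entries (41.3%), against 18478 other entries (52.4%). In no group stood 3287 distal entries (37.3%), against 9801 others (27.8%). The intermediate class of 1 to 31 groups held 1885 distal entries (21.4%) and 6988 others (19.8%), and of the entries detected in any group it made up 34.1% of the distal and 27.4% of the others. The first and the last ends were alike, with 40.6% and 42.1% of their entries in all groups, and so were the A, B and D chromosomes, at 40.8%, 41.1% and 42.2%. Entries detected in few groups, 1 to 4 of the 32, made up 8.52% of the distal and 6.80% of the other entries.

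**Figure D1:**
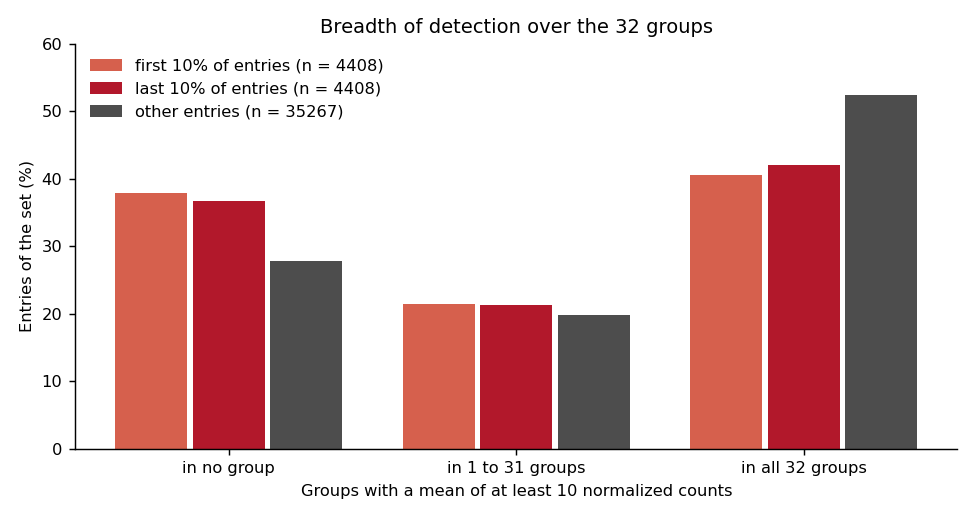
Share of entries (vertical axis, %) by the number of groups with a mean of at least 10 normalized counts (horizontal axis), for the first 10% (4408), the last 10% (4408) and the other entries (35267) of chromosomes 1A to 4D. Both ends show more entries detected in no group and fewer detected in all 32 than the other entries, 52.4% of which were detected in all 32.

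The limit of 10% fell where values changed most at the first end, but not at the last end. In bins of 5% of the entries, the share detected in all 32 groups was 39.7%, 41.5% and 47.5% in the first 3 bins, reached 60.6% in the bin at 40 to 45%, and was 41.0%, 39.6% and 44.6% in the last 3. The median entry had 9.05, 11.2 and 24.7 normalized counts in the first 3 bins, 64.1 in the bin at 40 to 45%, and 12.7, 10.3 and 16.2 in the last 3. At the first end the bin just outside the limit (10 to 15%) was thus well above the one inside it, while at the last end the bin just outside the limit (85 to 90%) had values close to those inside it.

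**Figure D2:**
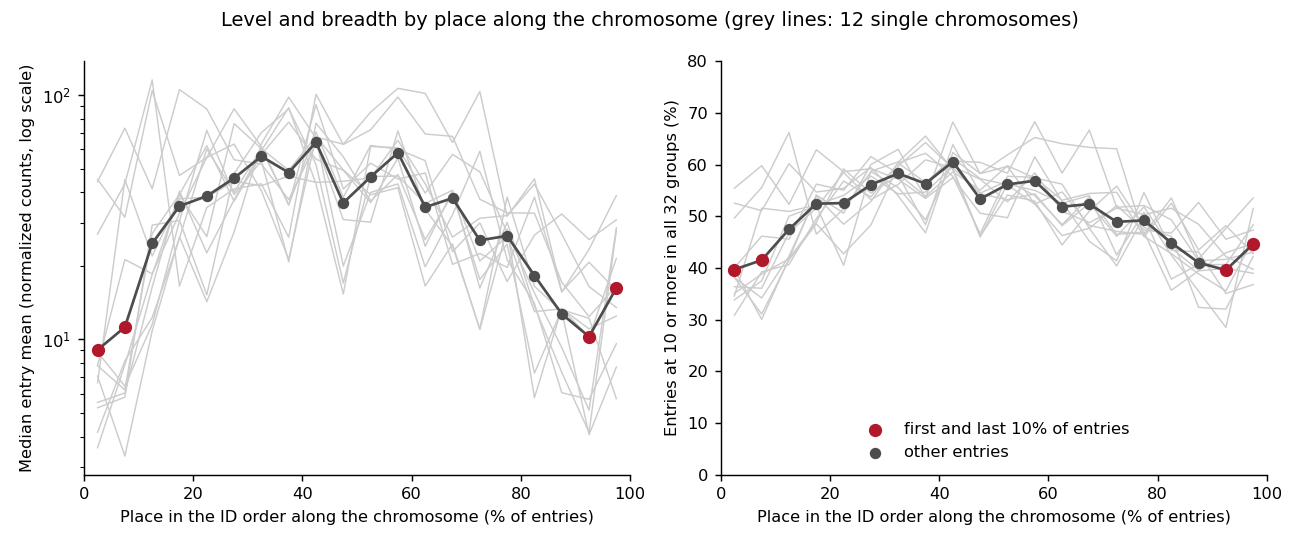
Median of the entries' mean levels (left, normalized counts, log axis) and share of entries at 10 or more normalized counts in all 32 groups (right, %), by place in the ID order along the chromosome in bins of 5%. Red points are the distal bins, dark points the other bins over all 12 chromosomes, and grey lines are single chromosomes; the share ranges from 39.6% in the bin at 90 to 95% to 60.6% in the bin at 40 to 45%.

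The pattern held at 23 of the 24 ends, both for the share detected in all groups and for the median level, each set against the other entries of the same chromosome. The exception was the first end of 4A, where 57.6% of the entries were detected in all groups and the median entry had 52.0 normalized counts, against 52.7% and 37.3 between the ends of 4A. The last end of 4A was among the lowest, at 35.8% and 4.99, and the first end of 3B had 34.6% and 4.11. The first ends of 4B and 4D, at 52.6% and 51.6%, were below the other entries of their chromosomes (56.0% and 56.9%) but above all remaining ends. Fewer genes were also measured per stretch of ID numbers at the ends: 27.2% of the numbers spanned in steps of 100 had an entry at the first ends and 25.2% at the last ends, against 29.5% between them. The table holds entries with at least 11 reads over all libraries, so unlisted numbers include genes with fewer reads.

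Between the tissues, large differences were more frequent at the ends, more so in favour of the rachis. Each entry that had at least 10 normalized counts in at least 3 libraries was tested with limma on log2(normalized count + 1), and called at a Benjamini-Hochberg adjusted p under 0.05 over the whole table. Of 5788 distal entries tested, 1995 (34.5%) were higher and 2179 (37.6%) lower in floret than in rachis, averaged over the 16 conditions. The share over the whole table was 36.5% higher and 34.8% lower (71.4% in either direction), and the other entries had 36.8% and 34.5%. At least 2-fold higher in floret were 222 distal entries (3.84%, 3.02% over the whole table, 2.89% of the other entries). At least 2-fold lower in floret, and so higher in rachis, were 599 (10.3%, 7.15% over the whole table, 6.50% of the others). Without the 3 plants whose libraries went against their labels these counts were 261 (4.52%, others 3.50%) and 661 (11.4%, others 7.59%), and with the plant as a block 221 and 588.

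Large folds were more frequent among low entries, so classes of like level were set side by side, and the share of rachis-high entries was larger at the ends in each of the 4 classes. Among entries averaging below 10, 10 to 100, 100 to 1000 and 1000 or more normalized counts, 13.1%, 14.8%, 6.06% and 3.93% of the distal entries were at least 2-fold higher in rachis, against 8.61%, 10.4%, 3.39% and 1.47% of the other entries. The floret-high share was larger at the ends as well, at 6.72%, 5.32%, 1.48% and 0.462%, against 5.30%, 4.40%, 1.14% and 0.379%. Along the chromosome the rachis-high share was 10.6% in the first bin of 5%, 2.77% in the bin at 35 to 40%, and 12.9% in the last bin. The floret-high share moved less, 3.78% in the first bin, 1.33% in the bin at 40 to 45% and 3.72% in the last. By end, the rachis-high share was above that of the other entries of the same chromosome at 19 of 24 ends and below it at 5. It was highest at the last ends of 4A (15.2%), 4D (15.1%), 3B (14.6%) and 4B (14.1%), and lowest at the first ends of 4D (5.03%) and 4A (6.16%) and the last end of 1B (6.10%). The floret-high share was above that of the other entries of the same chromosome at 16 ends and below it at 8. The first end of 1A had the largest floret-high share of any end, 10.4%, and its first 17 entries are described below. All 17 were at least 2-fold higher in floret and so are part of the distal floret-high shares above. Those shares are not given without them, so the size of the floret-high difference apart from this block is not known.

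**Figure D3:**
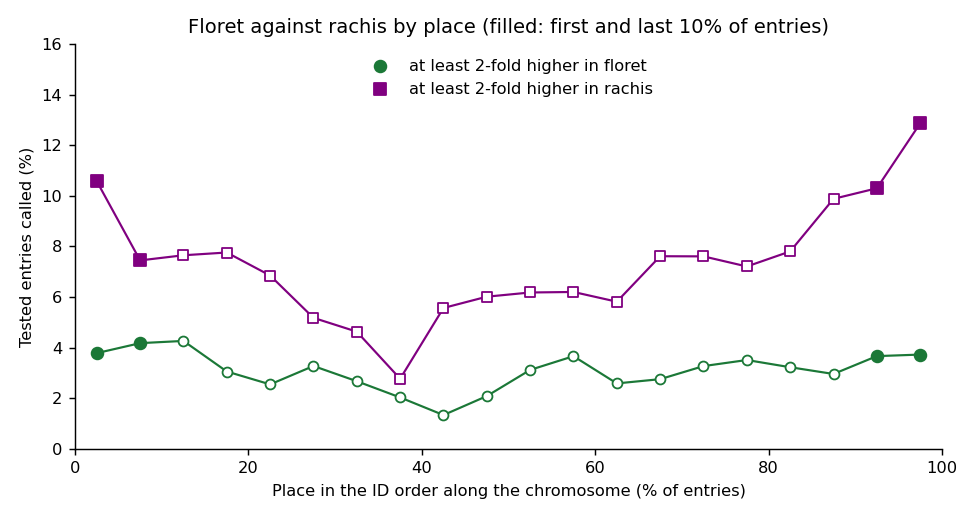
Share of tested entries (vertical axis, %) called at least 2-fold higher in floret (circles) or in rachis (squares), by place in the ID order along the chromosome in bins of 5%, over 12 chromosomes. Filled points are the distal bins; the rachis-high share is 12.9% in the last bin and 2.77% in the bin at 35 to 40%.

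Detection in 1 tissue alone followed the same direction. Of the 5529 distal entries detected in any group, 388 (7.02%) were detected in rachis groups alone and 208 (3.76%) in floret groups alone, against 1108 (4.35%) and 784 (3.08%) of 25466 other entries. No distal entry had floret and rachis libraries without overlap (61 against 60), also without the 3 plants, so none met the rule for being named. Such entries were rare among the others too: without the 3 plants 1 was free of overlap with floret higher and 4 with rachis higher. The pair below was chosen after its values were seen, as those with the largest fold toward rachis. TraesCS2B03G1553000.1, at the last end of 2B, had a lowest, median and highest value of 27.1, 69.5 and 2146 normalized counts in floret, against 56.2, 1042 and 2573 in rachis. Its log2 fold change was −3.41 (SE 0.20, limma adjusted p 9.6e-28), and without the 3 plants the highest floret value was 515 and the lowest rachis value 282. TraesCS1D03G0002300.1, at the first end of 1D, had 0, 5.35 and 192 in floret, against 2.39, 74.3 and 337 in rachis (log2 fold change −3.37, SE 0.24, limma adjusted p 1.4e-22).

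The 12 comparisons of heat, 29 °C against 22 °C at 8, 16 and 24 h for each seed treatment and tissue, differed widely in size. In 4 of them more than 20% of the tested distal entries were called, and in the other 8 between 0.917% and 6.84%. At 24 h in floret from DMSO seed, 1217 of 5334 tested distal entries (22.8%) rose and 711 (13.3%) fell. The share over the whole table was 21% for rises and 17.6% for falls (38.5% in either direction), and 20.8% of the other entries rose and 18.2% fell. At 8 h in floret from EBR seed 980 distal entries (18.4%) rose and 644 (12.1%) fell, with 15.5% and 14.6% over the whole table (30.2% in either direction) and 15.1% each among the other entries. The distal entries thus had a lower share of falls than the rest in both comparisons and a higher share of rises, by about as much as the falls at 8 h from EBR seed.

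In rachis the same pair of conditions gave the large counts. At 24 h from DMSO seed 871 of 5453 tested distal entries (16.0%) rose and 663 (12.2%) fell, with 15.8% and 14.5% over the whole table (30.3% in either direction) and 16.0% and 14.8% among the other entries. At 8 h from EBR seed 846 (15.5%) rose and 483 (8.86%) fell, with 12.6% and 11.9% over the whole table (24.5% in either direction) and 12.1% and 12.6% among the other entries. Changes of at least 2-fold were more often rises at the ends: at 24 h in floret from DMSO seed 658 distal entries (12.3%) rose and 166 (3.11%) fell by that much, with 10.6% and 4.03% over the whole table. At 8 h in floret from EBR seed 591 (11.1%) rose and 149 (2.79%) fell by that much, with 8.76% and 2.54% over the whole table, so falls of that size were not fewer at the ends there (2.49% of the other entries).

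The remaining 8 comparisons had few calls. In floret, 133 distal entries rose and 100 fell at 8 h from DMSO seed (over the whole table, 4.38% in either direction, 1.93% rises and 2.45% falls), and 144 rose and 112 fell at 16 h (5.1%, 2.45%, 2.65%). From EBR seed 192 rose and 173 fell at 16 h (over the whole table, 6.51%, 3.12% and 3.39%), and 151 rose and 113 fell at 24 h (4.9%, 2.31%, 2.59%). In rachis, 88 rose and 23 fell at 8 h from DMSO seed (1.94%, 1.1%, 0.841%), and 67 rose and 38 fell at 16 h (2.08%, 1.11%, 0.975%). From EBR seed 27 rose and 23 fell at 16 h (1.32%, 0.581%, 0.736%), and 83 rose and 39 fell at 24 h (2.61%, 1.22%, 1.39%).

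Over the 12 comparisons, the share of distal entries that fell was below that of the other entries in 12, and the share that rose was above it in 10. The comparisons of a tissue share 1 estimate of the spread, and each head gave both a floret and a rachis library, so these counts rest on 6 pairs of plant groups and not on 12. Fitting only the compared groups gave 8 of 12 for falls and 9 of 12 for rises, the lowest counts of the alternatives tried. The 2 exceptions for rises were 24 h from DMSO seed in rachis, where both shares round to 16.0%, and 16 h from EBR seed in rachis (0.495% of distal and 0.596% of other entries). Falls of at least 2-fold did not keep to this direction. In floret their distal share was higher at 8 h from DMSO seed (0.469%, others 0.164%) and at 16 h from EBR seed (1.05%, others 0.656%). It was lower at 24 h from DMSO seed in floret (3.11%, others 4.12%) and at 8 h from EBR seed in rachis (3.54%, others 4.74%). The remaining comparisons were divided.

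**Figure D4:**
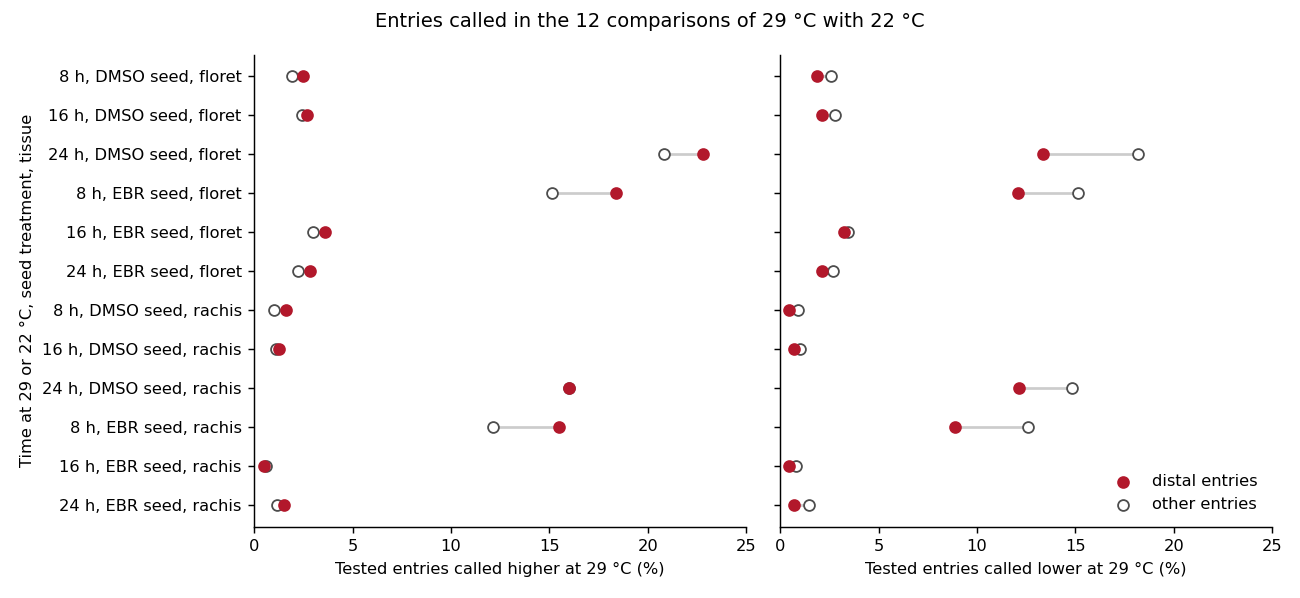
Share of tested entries (horizontal axes, %) called higher (left) and lower (right) at 29 °C than at 22 °C in 12 comparisons (rows), for distal entries (filled red) and other entries (open). In the row for 24 h, DMSO seed, floret, 22.8% of distal and 20.8% of other entries were called higher, and 13.3% of distal and 18.2% of other entries lower.

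Among entries of like level, the share of falls was lower at the ends in all 16 level classes of the 4 large comparisons, and in 25 of the 32 classes of the other 8 comparisons. At 24 h in floret from DMSO seed, 1.502%, 6.11%, 19.8% and 39.5% of the distal entries fell in the classes below 10, 10 to 100, 100 to 1000 and 1000 or more normalized counts, against 2.61%, 9.24%, 24.1% and 49.9% of the other entries. The share that rose was 29.6%, 20.1%, 22.6% and 20.8% of the distal and 26.5%, 18.5%, 21.5% and 18.1% of the other entries. At 8 h in floret from EBR seed the shares that fell were 2.36%, 4.78%, 17.8% and 37.6% of the distal entries and 2.82%, 6.21%, 20.7% and 44.1% of the others. Highly expressed entries fell more often in both sets. The top class held 423 of the 5334 tested distal entries and 2123 of the 25000 tested others in floret.

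The split between rises and falls depended on the test in some comparisons. With edgeR's quasi-likelihood test on the whole reads recovered from the table, 941 distal entries rose and 891 fell at 24 h in floret from DMSO seed, 661 and 803 at 24 h in rachis from DMSO seed, and 171 and 83 at 24 h in floret from EBR seed. The median log2 fold change of the whole table moved too, from 0.0546 to −0.0215, 0.0573 to −0.0188 and −0.033 to −0.0096. With edgeR the distal share of falls was below that of the other entries in 11 of 12 comparisons. The distal share of rises was above it in 10. The counts also moved when a replicate number was left out, which drops that library from every group of the tissue. The distal share of falls was then below that of the other entries in 9 to 12 of the 12 comparisons. The distal share of rises was above it in 10. Without the libraries numbered 2 there were 545 rises and 327 falls (16.7% called, against 36.1% with all) at 24 h in floret from DMSO seed, and in rachis 8.73% were called, against 28.1%. At 8 h from EBR seed in floret, 20.2%, 16.0% and 19.2% were called without the libraries numbered 1, 2 and 3, against 30.4% with all. In rachis at 8 h from EBR seed, where 22 °C has 2 libraries, 0.504% and 0.449% were called without those numbered 2 and 3, against 24.4% with all.

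The large comparisons also differed along the main axis of variation between heads of the same group. The median level of the distal entries was 3.93 ± 0.05 at 29 °C, against 3.37 ± 0.21 at 22 °C, at 24 h in floret from DMSO seed (SD, n = 4 each), and 3.27 ± 0.10 (n = 4), against 2.70 ± 0.05 (n = 3), at 8 h from EBR seed. Over all 16 floret groups, these hold the highest and the lowest distal median. The other entries had 5.313 at 29 °C, against 5.0004 at 22 °C, and 5.04, against 4.72, in the same pairs. Scores on the axis were 2.20 to 2.28 at 29 °C, against −0.68 to 1.67 at 22 °C, at 24 h from DMSO seed, and 0.04 to 1.32, against −1.35 to −1.18, at 8 h from EBR seed.

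Each plant's score in its other tissue was added as a covariate, an alternative chosen after the data were seen, for the plants with both tissues. At 8 h in floret from EBR seed 97 distal entries then rose and 37 fell, against 626 and 411 in the same plants without the covariate. The shares over the whole table fell too, to 1.18% and 0.875%, against 9.17% and 9.52%. In rachis 62 rose and 14 fell, against 839 and 482, with 0.947% and 0.669% over the whole table, against 12.5% and 11.8%. At 8 h from EBR seed the scores at 29 °C and at 22 °C did not overlap in either tissue. The covariate cannot be told apart from heat there. At 24 h from DMSO seed the floret scores, which are the covariate for rachis, did not overlap either. The same limit thus holds for rachis at 24 h from DMSO seed. The rachis scores, the covariate for floret, did overlap (1.88 to 2.29 at 29 °C, against −0.90 to 2.14 at 22 °C). At 24 h in floret from DMSO seed 839 rose and 515 fell, against 1204 and 705, and in rachis 529 rose and 491 fell, against 860 and 663.

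At 24 h in floret from DMSO seed, the distal entries with the largest changes were near the first ends of 3A and 3D. TraesCS3A03G0019300.1 had 4829, 3860, 3232 and 5422 normalized counts at 29 °C, against 510, 5.60, 12.3 and 4.16 at 22 °C. All 4 heated heads were above all 4 at 22 °C, and replicate 1 at 22 °C stood far above the other 3. Its log2 fold change was 7.60 (SE 1.14, limma adjusted p 7.9e-07), and in rachis 4.12 (adjusted p 3.3e-03). TraesCS3D03G0016200.1 had 732, 581, 447 and 844 at 29 °C, against 71.3, 0.933, 2.04 and 0.832 at 22 °C (log2 fold change 6.91, SE 0.83, limma adjusted p 7.1e-09), again with replicate 1 the highest at 22 °C.

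The largest falls there were smaller. TraesCS4B03G0039400.1 had 23.9, 14.7, 8.16 and 4.22 normalized counts at 29 °C, against 38.3, 215, 63.4 and 30.8 at 22 °C (log2 fold change −2.46, SE 0.57, limma adjusted p 5.4e-04). TraesCS3B03G0060100.1 had 16.2, 20.97, 8.16 and 9.49 at 29 °C, against 41.0, 218, 26.6 and 39.9 at 22 °C (log2 fold change −2.04, SE 0.52, limma adjusted p 1.5e-03). Its call was lost without the libraries numbered 2 (adjusted p 5.2e-02). In both entries the groups did not overlap and replicate 2 was the highest at 22 °C.

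At 8 h in floret from EBR seed TraesCS1D03G1006300.1, at the last end of 1D, had 87.4, 173, 89.0 and 159 normalized counts at 29 °C and was listed at 0 in all 3 heads at 22 °C (limma adjusted p 4.9e-03). It was not low in all unheated florets: it reached 192 at 22 °C and 16 h from DMSO seed (mean 108, n = 4) and 209 at 0 h from EBR seed. TraesCS3B03G0113600.1 had 64.9, 509, 415 and 118 at 29 °C, against 0, 3.75 and 0 at 22 °C (log2 fold change 6.91, SE 1.92, limma adjusted p 6.0e-03), and its call was lost without the libraries numbered 3. Neither was called with the head-axis covariate. The largest falls were in 2 of the first entries of 1A. TraesCS1A03G0001400.1 had 18.9, 15.3, 18.9 and 7.005 at 29 °C, against 671, 573 and 389 at 22 °C (log2 fold change −5.14, SE 0.66, limma adjusted p 4.0e-07), and TraesCS1A03G0002800.1 had 10.8, 11.7, 18.0 and 28.02, against 537, 444 and 333.

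Few distal entries responded to heat throughout. Of 5084 tested in all 12 comparisons, 6 (0.118%) rose and 2 (0.0393%) fell in every one, with 0.0837% and 0.0405% over the whole table. In at least 10 of the 12, 12 distal entries rose (0.236%, with 0.189% over the whole table) and 4 fell (0.0787%, with 0.17% over the whole table). No call in any was made for 31.7% of the distal entries, with 31.1% over the whole table. These counts of entries are small, apart from the last. TraesCS1A03G0038700.1, at the first end of 1A, rose in all 12, by 1.14 to 1.92 on the log2 scale. At 24 h in floret from EBR seed it had 59.7, 33.3, 47.4 and 40.5 normalized counts at 29 °C, against 16.3, 14.1, 13.4 and 9.82 at 22 °C, and from DMSO seed 59.8, 54.5, 57.1 and 67.5, against 24.95, 17.7, 17.4 and 19.1.

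TraesCS3B03G0101100.1, at the first end of 3B, also rose in all 12, with a mean log2 fold change of 1.28. It had 671, 572, 665 and 727 normalized counts at 29 °C, against 269, 111, 187 and 262 at 22 °C, at 24 h in floret from DMSO seed. The 2 entries that fell in all 12 were TraesCS2A03G1299200.1, at the last end of 2A, with a mean log2 fold change of −0.94, and TraesCS4B03G0043800.1, at the first end of 4B, with −0.89. TraesCS2A03G1299200.1 had 114, 97.2, 71.3 and 49.9 at 29 °C, against 340 and 347 at 22 °C, at 8 h in rachis from EBR seed. TraesCS4B03G0043800.1 had 156, 107, 140 and 112 at 29 °C, against 281, 325, 326 and 261 at 22 °C, at 24 h in rachis from DMSO seed. The groups did not overlap for these 4 entries in the values given.

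Whether the heat response differed between the seed treatments was tested at 24 h as an interaction, the change with EBR seed minus the change with DMSO seed. It rests on the libraries of both 24 h comparisons above. In floret it was positive in 517 distal entries (9.69%) and negative in 948 (17.8%), with 12.3% and 17.1% over the whole table (29.3% in either direction). In rachis it was positive in 440 and negative in 514, with 8.71% and 10.3% over the whole table (19% in either direction). The split depended on the test. In floret it was still more often negative with TMM scaling, at 739 positive and 825 negative, but turned with edgeR, to 762 and 603. In rachis it turned with edgeR, to 578 and 321. The median log2 difference of the whole table moved too. In floret it was −0.0536, and 0.0312 with TMM scaling and 0.0456 with edgeR, and in rachis −0.0601, and 0.0089 with edgeR. Without the libraries numbered 2, 5.02% of the distal entries were called in floret, against 27.5% with all, and 1.55% in rachis, against 17.5%. Without those numbered 3 the shares were 17.9% and 4.64%, and in rachis 10.1% without those numbered 4 and 31.4% without those numbered 1.

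With the head-axis covariate the interaction was positive in 175 distal entries and negative in 408 in floret, and in 82 and 135 in rachis. Over the whole table the shares were 3.90% and 6.92% in floret and 1.31% and 2.74% in rachis. The most negative was TraesCS3A03G0019300.1 (−8.89, SE 1.62, limma adjusted p 8.4e-05), which had 8.78, 0, 0.948 and 1.76 normalized counts at 29 °C, against 22.4, 28.1, 1.78 and 0 at 22 °C, from EBR seed. TraesCS2D03G0118500.1, at the first end of 2D, had 1.76, 2.33, 0 and 0 at 29 °C, against 12.2, 7.51, 4.46 and 0.892 at 22 °C, from EBR seed, and 729, 1345, 2027 and 1893 at 29 °C, against 225, 0.933, 11.2 and 14.98 at 22 °C, from DMSO seed (−8.10, SE 1.27, limma adjusted p 7.3e-06). Its EBR groups overlapped, and its DMSO groups did not. The most positive were TraesCS1A03G0003200.1 (4.69, SE 0.85, limma adjusted p 8.0e-05) and TraesCS1A03G0002100.1 (4.56, SE 0.86, limma adjusted p 1.4e-04), both among the first 17 entries of 1A.

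Before any heat, EBR and DMSO seed were compared over both 0 h groups of each. In floret 33 of 5334 distal entries (0.619%) were higher and 2 (0.0375%) lower with EBR, with 0.394% and 0.0887% over the whole table (0.483% in either direction), and edgeR gave 32 and 13. In rachis limma called no distal entry (0.018% over the whole table), edgeR called 0, and 386 of 5453 had an unadjusted p under 0.05. Of the 35 calls in floret, 17 were the first 17 entries of chromosome 1A, and without these 16 entries were higher and 2 lower. The share of higher entries was then below the 0.394% of the whole table. At the last ends 0.261% were higher, against 0.356% of the other entries. TraesCS1A03G0002800.1 had 307, 473, 442 and 226 normalized counts in the pots from EBR seed that were to be moved to 29 °C and 321, 248, 109 and 288 in those kept at 22 °C. In the matching pots from DMSO seed it had 6.07, 13.8 and 44.9, and 9.42, 21.04, 6.36 and 27.8, so the seed treatments did not overlap (log2 fold change 4.14, SE 0.44, limma adjusted p 2.4e-08).

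TraesCS1A03G0001400.1 likewise lay between 94.5 and 661 normalized counts with EBR seed, against 10.47 to 55.4 with DMSO seed (log2 fold change 4.08, SE 0.45, limma adjusted p 2.4e-08). One of the 2 lower entries, TraesCS4B03G0907600.1 at the last end of 4B, had 159, 170, 171 and 158 in the EBR pots to be moved and 163, 162, 153 and 149 in those kept, against 237, 177 and 197, and 223, 235, 280 and 192, in the DMSO pots. Its log2 fold change was −0.43 (SE 0.09, limma adjusted p 7.1e-03), and the call was lost without the libraries numbered 1 and without the 3 plants whose libraries went against their tissue labels.

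The first 17 entries of 1A, with ID numbers 200 to 3200, moved as a block in floret. All 17 were higher with EBR seed at 0 h, by 2.22 to 4.14 on the log2 scale, with both limma and edgeR. Of the next 17 entries 12 were tested, none was called by limma or edgeR, none had an unadjusted p under 0.05, and their log2 fold changes lay between −0.44 and 0.22. The boundary of the block was set after these values were seen, so the contrast across it is a description. In heat, all 17 fell at 8 h from DMSO seed (median log2 fold change −2.50, 15 with edgeR), fell at 8 h from EBR seed (median −4.21) and rose at 24 h from EBR seed (median 3.86), and the interaction at 24 h was positive for all 17 (16 with edgeR). None was called at 16 h from either seed treatment or at 24 h from DMSO seed, by limma or by edgeR, where 1, 4 and 0 had an unadjusted p under 0.05 at 16 h from DMSO seed, 16 h from EBR seed and 24 h from DMSO seed.

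In rachis 16 of them were tested, and limma called none in any heat comparison, in the interaction or at 0 h. The exception by edgeR was 16 h from EBR seed, where it called 10 as lower and 9 had an unadjusted p under 0.05 with limma. At 0 h in rachis 6 had an unadjusted p under 0.05, at 24 h from DMSO seed 2, and in the other rachis comparisons none, while edgeR called none in these. All 17 were higher in floret than in rachis, by 1.25 to 2.20 on the log2 scale.

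The level of the block split the libraries by plant set, the number in the library name, which stands for a single condition each. Its mean log2(normalized count + 1) was 5.22 to 8.50 in the 27 floret libraries of sets 10 to 16 (median 7.47) and 2.75 to 6.54 in the 34 of sets 1 to 9 (median 3.63), of which 3 lay above 5.22. In rachis it was 2.51 to 4.44 in 57 libraries and 6.90 to 7.90 in 3, replicates 1 and 2 of set 1 and replicate 1 of set 2. Sets 10 to 16 hold EBR seed at 0 h at both temperatures, at 22 °C and 8 h and at 29 °C and 24 h, and DMSO seed at 22 °C and 8 h and at 16 h at both temperatures. Set and condition cannot be told apart for these entries, and the cut between sets 9 and 10 was chosen after the values were seen. Its entries varied together between heads of a group: over the 61 floret libraries the residuals from group means correlated between its entries with r from 0.47 to 0.96 (median 0.81, 136 pairs), and in 60 rachis libraries with a median of 0.75.

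**Figure D5:**
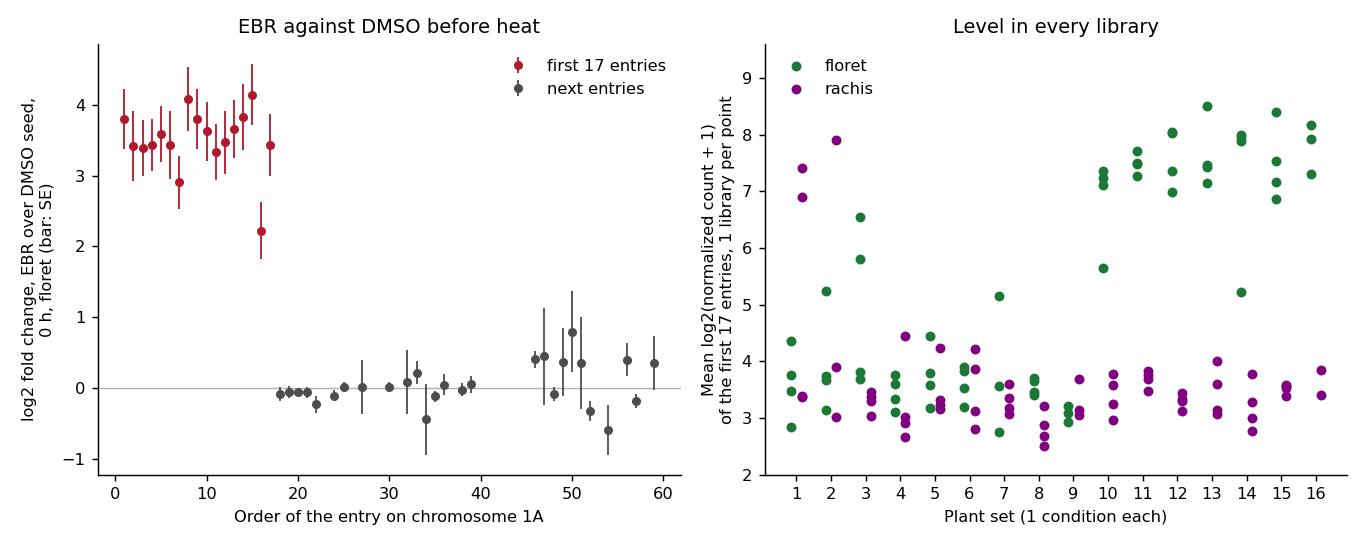
Left, log2 fold change of EBR over DMSO seed at 0 h in floret (vertical axis, bars show the SE) of each tested entry by its order on chromosome 1A, with the first 17 entries in red, between 2.22 and 4.14, and the next ones in grey. Right, mean log2(normalized count + 1) of the first 17 entries (vertical axis) in each library, by plant set (horizontal axis), with floret in green and rachis in purple; floret libraries of sets 10 to 16 lie between 5.22 and 8.50.

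Neighbouring distal entries varied together more often than other neighbours. Across 61 floret libraries, the residuals of consecutive tested entries of different genes had a median r of 0.04 at the ends (5275 pairs) and 0.03 elsewhere (24803 pairs). The upper tail was longer at the ends: 512 pairs (9.71%) had r above 0.5, against 6.59% elsewhere, and 103 (1.95%) had r above 0.8, against 0.802%. Without the first 17 entries of 1A the distal shares were 9.43% and 1.77%. In rachis, over 60 libraries, 11.3% of distal pairs had r above 0.5, against 8.00%, and 2.36% had r above 0.8, against 1.10%. Pairs share their libraries and may share reads where neighbours are near-identical copies, and these values are descriptions with no test. They include the plants whose libraries went against their tissue labels, and values without those plants are not given. How far those plants add to the high r was thus not tested.

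Of the 512 distal pairs with r above 0.5 in floret, 344 were close neighbours, at most 300 apart in ID number. Among all pairs that close, 12.4% of distal and 7.45% of other pairs had r above 0.5 in floret, and among pairs further apart 6.72% and 5.42%. The median spread between heads of a group differed little between the sets, while its upper tail was longer at the ends. This spread, too, includes the plants whose libraries went against their tissue labels, and is not given without them. Among entries of 10 to 100 normalized counts the median residual SD on the log2 scale was 0.485 in floret, against 0.436 for the other entries, and 0.543 in rachis, against 0.495. Among those of 100 to 1000 it was 0.194 in floret, against 0.187, and 0.226 in rachis, against 0.216, and among those of 1000 or more it was slightly lower at the ends, 0.144 in floret, against 0.148, and 0.181 in rachis, against 0.187.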

How the data were processed

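Poly(A) RNA of floret and rachis was sequenced. Tools listed by the submitters' processing notes, without roles, are STAR, featureCounts, DESeq2, Trimmomatic 0.36, FastQC and MultiQC, and no genome build is named. Per the labels' protocols, 5 samples were removed for poor RNA. The deposited table gives a signal for each entry and library, called normalized counts by the authors: in every library 100% of values were whole reads (within 0.01) divided by a single factor. Of 55578 entries 1 was incomplete and left out, and 1 of 122 samples had no column. The total reads above set the precision, and entries under about 10 normalized counts are the least precise.

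Groups were taken from the labels. The log2(normalized count + 1) values were fitted in R 4.3.3 by limma 3.58.1, giving each group its own mean, with a trend in the variance and the spread shared within a tissue (within both for the tissue comparison). Entries with at least 10 in at least 3 libraries were tested, p-values were two-sided and adjusted by Benjamini-Hochberg over the whole table, and calls are at 0.05. Fold changes on this scale understate those of low entries. The fits were tested on simulated data first. Alternatives were pseudocounts of 0.5 and 5, other filters, TMM scaling, edgeR 4.0.16 on the recovered reads, leaving out replicates, blocks, other end limits and, added after the data were seen, the exclusions and the covariate. The head axis is the main axis of variation within groups. The members, lists and tests were chosen with earlier results of these data known. For the comparisons at 24 h from DMSO seed and 8 h from EBR seed in floret, the 24 h interaction in floret, EBR at 0 h in floret and tissue, up to 2 entries in each direction were named, by the largest fold change among called entries with a group mean of at least 50 whose groups did not overlap (no such condition for the interaction). Over the 12 heat comparisons they were named by the number called in 1 direction and then by the mean fold change. Replicate numbers did not pair plants, with a mean residual r of 0.0011 in floret and 0.0098 in rachis between same-numbered libraries, while floret and rachis of the same plant had 0.215 over 59 plants.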

Additional observations from a re-analysis of the deposited data

Results flagged for a closer look

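Within groups of 4, a single head stood apart in 4 of 61 sets of values tested for the named entries. This is near the rate of about 1 in 20 groups that chance flags. All 4 lay in floret from DMSO seed at 22 °C and 24 h. The flagged entries were picked for large changes in comparisons that hold this group, and flags on the same head are not independent. Replicate 1 had 509.7 normalized counts of TraesCS3A03G0019300.1, 71.287 of TraesCS3D03G0016200.1 and 224.55 of TraesCS2D03G0118500.1, each far above the other 3 heads of its group. Replicate 2 had 218.42 normalized counts of TraesCS3B03G0060100.1.

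The 4 entries named for the interaction at 24 h in floret had large differences in heat response between EBR and DMSO seed. They were picked by size among the entries called in that same test, so this outcome follows from the choice. The difference on the log2 scale was 4.688 for TraesCS1A03G0003200.1, 4.557 for TraesCS1A03G0002100.1, −8.894 for TraesCS3A03G0019300.1 and −8.097 for TraesCS2D03G0118500.1. For the last pair, replicate 1 from DMSO seed at 22 °C is the high head given above. Both entries of 1A are among its first 17, for which plant set and condition cannot be told apart.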

How the results depend on the processing

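Values here are the shares of tested distal entries called, in percent, for heat comparisons unless named otherwise. The replicate block, pseudocounts of 0.5 and 5, TMM scaling, edgeR, ends cut by 10% of the number span and leaving out the 3 plants whose tissues went against their labels moved none of them by over 1.5 times. With the replicate block 35.9% were called at 24 h in floret from DMSO seed, and none of the 15 results of an entry named for a single comparison changed its call with it; the replicate numbers were not found to pair the plants. With the plant as a replicate block 74.8% were called between the tissues.

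Without the filter more entries were tested, and the shares were lower. In floret they were 2.18% at 8 h and 2.28% at 16 h from DMSO seed, 17.8% at 8 h, 3.52% at 16 h and 2.50% at 24 h from EBR seed and 0.386% for EBR at 0 h. In rachis they were 1.17% at 8 h and 0.898% at 16 h from DMSO seed, and 14.003% at 8 h and 1.07% at 24 h from EBR seed. With a mean of at least 50 they were in floret 7.18% at 8 h and 8.45% at 16 h from DMSO seed, 11.3% at 16 h and 8.61% at 24 h from EBR seed and 1.02% for EBR at 0 h, and in rachis 3.92% at 8 h and 3.49% at 16 h from DMSO seed, and 2.18% at 16 h and 4.23% at 24 h from EBR seed. With only the compared groups fitted they were in floret 1.76% at 8 h from DMSO seed and 0.276% at 16 h from EBR seed, and in rachis 0.136%, 0.797% and 5.46% at 8, 16 and 24 h from DMSO seed, 0% at 16 h from EBR seed and 6.66% for the interaction.

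With the head-axis covariate they were in floret 2.52% at 8 h and 2.29% at 16 h from EBR seed, 10.9% for the interaction and 1.03% for EBR at 0 h, and in rachis 3.32% at 8 h and 18.7% at 24 h from DMSO seed, 1.39% at 8 h from EBR seed and 3.98% for the interaction. In the same plants without it they were 19.5% at 8 h and 3.89% at 16 h in floret from EBR seed. Without the 3 plants with a high tip of 1A in rachis, 16 h from EBR seed gave 3.78% in floret and 0.313% in rachis. EBR at 0 h in floret gave 1.09% with ends of 5% and 0.339% without the first 17 entries of 1A, and in rachis 0.0263% with ends of 20%. The mean distal level was 3.73 with ends of 20% and 3.43 with 1 entry per gene, against 3.23. The share detected in all groups was 43.9% with ends of 20%, 53.5% at a mean of 1 and 28.5% at a mean of 50, against 41.3%. The cause was not tested.

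Leaving out 1 replicate number gave these ranges. At 8, 16 and 24 h, floret from DMSO seed had 1.26% to 3.17%, 0.707% to 4.03% and 16.7% to 37.5%, and floret from EBR seed 16.0% to 29.4%, 1.76% to 5.10% and 1.70% to 3.40%. Rachis from DMSO seed had 0.578% to 1.48%, 0.432% to 1.67% and 8.73% to 34.8%, and rachis from EBR seed 0.449% to 30.6%, 0.187% to 2.29% and 0.466% to 1.60%. The interaction gave 5.02% to 34.3% in floret and 1.55% to 31.4% in rachis, and EBR at 0 h gave 0.439% to 0.832% in floret. The tissue comparison gave 65.0% to 71.0%, breadth 40.6% to 40.9% and the level 3.23 to 3.24. Where this left a group with 1 library, its spread was taken to be that of the other groups. Among low entries depth limits detection, so absence from a group means fewer than 10 normalized counts, not no expression.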
